A study of Mus musculus with 8 samples.

Results

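The immunity-related GTPases (IRG proteins) examined here are 7 mouse genes, Igtp, Irgm1, Irgm2, Iigp1, Tgtp1, Tgtp2 and Ifi47. They were taken by symbol from a table of 27179 gene IDs. All 7 were present and all 7 passed the filter on low counts, which left 14238 genes in the tests. RNA was sequenced from plasmacytoid dendritic cells (pDC) and conventional dendritic cells (cDC) sorted from spleens of leukemia-bearing C57BL/6 mice. The mice had received panobinostat, an inhibitor of histone deacetylases, or vehicle for 2 days. Each of the 4 groups (pDC or cDC, vehicle or panobinostat) had 2 libraries, described as biological replicates, and each library pooled 3 to 6 mice. Every group therefore carried leukemia, and no healthy mice were included. The age of the mice, the dose and the make-up of the leukemia were not given in the sources used here. The series title names acute myeloid leukemia and a dependence on IFNAR, the type I interferon receptor, so the treatment question is what panobinostat does to dendritic cells in this setting.

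IRG proteins are GTPases that coat the membranes of vacuoles holding intracellular pathogens and help to disrupt them. One class, to which Igtp (also called Irgm3), Irgm1 and Irgm2 belong, sits on the cell's own membranes and keeps the effector class in its inactive state there. The effector class holds Iigp1 (Irga6), the closely related Tgtp1 and Tgtp2 (Irgb6) and Ifi47 (Irgd), which load onto pathogen vacuoles. Transcription of the family is classically induced by interferon gamma, through its receptor and the kinases JAK1 and JAK2, and also by type I interferons. Gamma-activated sites and interferon-stimulated response elements are DNA motifs through which these signals reach promoters, and the latter are bound by interferon regulatory factors.

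In RefSeq on GRCm38.p6, 6 of the 7 genes lie on chromosome 11. Irgm1 (Entrez 15944, chr11:48865245-48871420), Tgtp1 (Entrez 21822, chr11:48985329-48992246), Tgtp2 (Entrez 100039796, chr11:49057196-49064212) and Ifi47 (Entrez 15953, chr11:49076587-49096987) form one cluster. Igtp (Entrez 16145, chr11:58199556-58207592) and Irgm2 (Entrez 54396, chr11:58214977-58222783) lie next to each other in another. Iigp1 lies outside both clusters. All 7 are protein coding.

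The sequences around the start sites were read for 2 motifs of the interferon response. The family is classically induced by interferons, so such motifs are not a trait independent of the choice of genes. RefSeq windows of 300 bases (250 before and 50 after the annotated start, GRCm38.p6) were available for 6 of the 7 members, all except Iigp1. Both strands were searched for the core of the interferon-stimulated response element, 2 copies of GAAA with any 2 bases between them, and for the gamma-activated site, TTCNNNGAA, which reads the same on both strands. Of 32851 windows in the reference, 1131 (3.44%) held the first motif, 2726 (8.3%) the second and 149 (0.45%) both. Igtp, Irgm2, Tgtp1 and Tgtp2, 4 members in all, held both. Irgm1 held 2 overlapping matches of the response element core and no gamma-activated site. In the stretches below, written 5′ to 3′ on the strand of the gene, capitals mark the motif letters.
Igtp: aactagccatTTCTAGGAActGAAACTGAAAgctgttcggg
Irgm2: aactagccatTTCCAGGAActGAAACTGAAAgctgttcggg
Tgtp1: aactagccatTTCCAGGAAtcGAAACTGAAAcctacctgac
Tgtp2: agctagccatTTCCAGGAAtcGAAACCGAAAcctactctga
Irgm1: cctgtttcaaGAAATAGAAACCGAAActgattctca
The Igtp stretch is chr11:58199501-58199541 on the plus strand, and the Irgm2 stretch is chr11:58214892-58214932 on the plus strand. The Tgtp1 stretch is chr11:48992304-48992344, the Tgtp2 stretch chr11:49064263-49064303 and the Irgm1 stretch chr11:48871425-48871460, all on the minus strand. In Igtp, Irgm2, Tgtp1 and Tgtp2 the motifs stand in the same order, gamma-activated site first, with a pair of bases between them. The stretches of Igtp and Irgm2 are near copies of each other, and those of Tgtp1 and Tgtp2 are alike as well. The 4 members are therefore not separate observations to set beside the share of all windows. The Ifi47 window held neither motif. That window belongs to the most upstream of 5 annotated Ifi47 transcripts in GENCODE M21, and the other 4 start 10113 to 11677 bases further downstream. A match describes letters in these windows and is not evidence that a factor was bound.

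Library totals were 13124861 to 20657429 counts. The second panobinostat pDC library stood apart, with the lowest total and 10745 genes with at least 1 count, against 14927 to 19950 in the other 7 libraries, and the pDC panobinostat values are also given below without it. Summed lineage genes followed the labels. Levels are given as CPM, counts per 1000000 counts with library sizes scaled by the TMM method. In pDC libraries 12 pDC markers summed to 13110 to 15080 CPM with vehicle and 15850 to 21530 CPM with panobinostat. Over the cDC libraries they summed to 222 to 327 CPM. The 12 cDC markers summed to 1077 to 1670 CPM in pDC and 3924 to 5671 CPM in cDC. Single lineage genes differed with treatment in pDC, in both directions. Estimates with panobinostat were above 0 there for 8 of the 12 pDC markers and 8 of the 12 cDC markers. Siglech, a pDC marker, had 4061 and 4240 CPM with vehicle and 5435 and 6548 CPM with panobinostat. Spib, another pDC marker, had 801 and 809 CPM with vehicle and 272 and 312 CPM with panobinostat. The cDC marker Id2 had 5.95 and 10.2 CPM with vehicle and 21.1 and 71.7 CPM with panobinostat. Counts of single members ranged from 141 (Iigp1 in the first vehicle cDC library) to 9737 (Tgtp2 in the second panobinostat cDC library), so none was near the limit of detection.

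All 7 IRG genes had higher levels after panobinostat than after vehicle, in pDC and in cDC alike, and for each of the 7 the lower panobinostat library exceeded the higher vehicle library within each cell type. The fitted differences ran from 1.50-fold (Irgm2) to 2.75-fold (Irgm1) in pDC and from 1.84-fold (Ifi47) to 2.71-fold (Tgtp1) in cDC. Without the second panobinostat pDC library the pDC estimates remained above 0 but 5 of 7 were smaller, with log2 fold changes from 0.31 (Ifi47) to 1.36 (Iigp1). None of the 7 passed the threshold of an adjusted p of 0.05 (quasi-likelihood test of edgeR, Benjamini-Hochberg adjusted over 14238 genes) in either cell type, so these are differences in level that were not called. Summed over the 7, pDC libraries held 629 and 980 CPM with vehicle and 1451 and 2162 CPM with panobinostat. The sums in cDC were 458 and 555 CPM with vehicle and 977 and 1459 CPM with panobinostat. In bulk RNA from sorted cells, a change in the make-up of the sorted cells and a change in RNA per cell cannot be told apart.

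**Figure D1:**
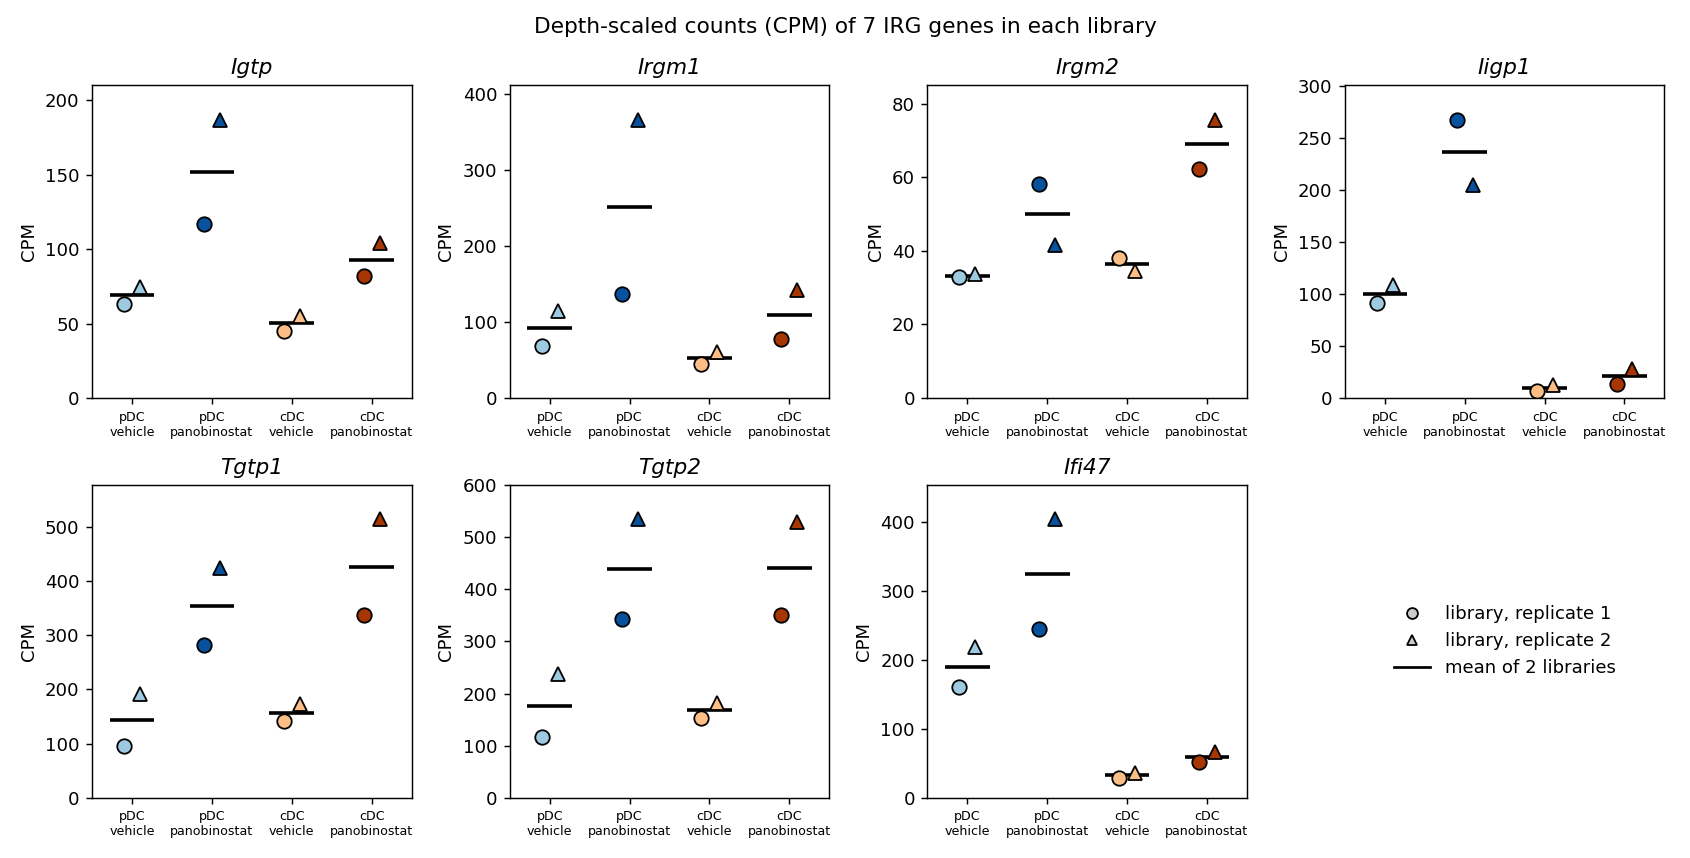
CPM (y axis, starting at 0, a separate scale per gene) of the 7 IRG genes in each of the 8 libraries, by group on the x axis; circles are replicate 1, triangles replicate 2 and horizontal bars the mean of the 2 libraries. In every panel both panobinostat libraries lie above both vehicle libraries of the same cell type, and Iigp1 and Ifi47 are low in all 4 cDC libraries.

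Among the regulators, Igtp had 63.2 and 74.7 CPM in the vehicle pDC libraries and 117 and 187 CPM in the panobinostat pDC libraries. In cDC it had 44.8 and 55.4 CPM with vehicle and 81.8 and 104 CPM with panobinostat. The groups did not overlap in either cell type. The log2 fold change was 1.14 ± 0.29 (SE, adjusted p = 0.198) in pDC and 0.89 ± 0.29 (SE, adjusted p = 1) in cDC by edgeR's quasi-likelihood test.

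Irgm1, which is also known for its part in autophagy and in resistance to mycobacteria, had the widest gap between replicates of the 7 in panobinostat pDC. Its levels in pDC were 68.3 and 115 CPM with vehicle and 138 and 367 CPM with panobinostat. In cDC they were 45.4 and 60.7 CPM with vehicle and 77.2 and 142 CPM with panobinostat. The second panobinostat library was the higher one in both cell types. The log2 fold change was 1.46 ± 0.55 (SE, adjusted p = 0.302) in pDC, where it was 0.53 without the second panobinostat library, and 1.05 ± 0.55 (SE, adjusted p = 1, 95% confidence interval -0.27 to 2.37) in cDC.

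Irgm2, a regulator found at the Golgi, had 33.0 and 33.6 CPM in vehicle pDC and 58.3 and 41.6 CPM in panobinostat pDC. Its cDC levels were 38.2 and 34.5 CPM with vehicle and 62.4 and 75.7 CPM with panobinostat. It was the only member with the higher point estimate in cDC among the regulators, at 0.93 ± 0.27 (SE, adjusted p = 1) on the log2 scale, against 0.59 ± 0.27 (SE, adjusted p = 0.374) in pDC. The pDC interval ran from -0.07 to 1.25 and contained 0.

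Among the effectors, Iigp1 (Entrez 60440, chr18:60373616-60392634 on the same build) had 91.4 and 109 CPM in vehicle pDC and 268 and 205 CPM in panobinostat pDC. In cDC it had 6.57 and 12.9 CPM with vehicle and 13.9 and 27.7 CPM with panobinostat, so even the highest cDC library stayed below the lowest pDC library. Its log2 fold change with panobinostat was nonetheless of like size in both, 1.24 ± 0.44 (SE, adjusted p = 0.284) in pDC and 1.10 ± 0.44 (SE, adjusted p = 1) in cDC.

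Tgtp1 had 95.6 and 192 CPM in vehicle pDC and 283 and 424 CPM in panobinostat pDC. The cDC libraries held 141 and 173 CPM with vehicle and 338 and 514 CPM with panobinostat. The log2 fold change was 1.30 ± 0.41 (SE, adjusted p = 0.246) in pDC and 1.44 ± 0.41 (SE, adjusted p = 1) in cDC, the latter being the highest of the 7 in that cell type.

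Tgtp2 ran close to Tgtp1, with 116 and 237 CPM in vehicle pDC and 343 and 534 CPM in panobinostat pDC. The cDC values were 154 and 182 CPM with vehicle and 351 and 529 CPM with panobinostat. The log2 fold change was 1.31 ± 0.41 (SE, adjusted p = 0.249) in pDC and 1.39 ± 0.42 (SE, adjusted p = 1) in cDC. The values of the pair are not independent. Their longest protein-coding transcripts in GENCODE M21 are 99.8% identical over 2810 aligned bases, and 89.4% of the 50-base stretches of Tgtp1 occur in Tgtp2. Reads from one can therefore be counted for the other, or for neither. The ratio of Tgtp2 to Tgtp1 counts lay between 1.21 and 1.26 in pDC and between 1.03 and 1.09 in cDC, 4 libraries each. When the pair was summed, the levels were 212 and 429 CPM in vehicle pDC, 625 and 958 CPM in panobinostat pDC, 295 and 355 CPM in vehicle cDC and 689 and 1043 CPM in panobinostat cDC.

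Ifi47 had 161 and 218 CPM in vehicle pDC and 245 and 403 CPM in panobinostat pDC. In cDC the values were 28.8 and 36.0 CPM with vehicle and 52.5 and 66.5 CPM with panobinostat. Like Iigp1, every pDC library stood above every cDC library. The log2 fold change with panobinostat was 0.77 ± 0.31 (SE, adjusted p = 0.320) in pDC and 0.88 ± 0.31 (SE, adjusted p = 1) in cDC, the lowest of the effectors in both cell types.

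Sharing of reads was slight outside the Tgtp pair. Of the 50-base stretches of Igtp, 12.3% occur in annotated transcripts of its neighbour Irgm2, and no other pair of members outside Tgtp1 and Tgtp2 shared any. RefSeq places the long noncoding gene Gm42074 over Tgtp1 and the pseudogene Gm12188 over Ifi47, and whether the counting used strand is not given in the sources used here.

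Read against all genes, the count of called members was 0 of 7 in pDC, where 0.014% of the genes tested were called higher (0.0913% in either direction), and 0 of 7 in cDC, where 0% were called. At an unadjusted p of 0.05 in the same edgeR test, 6 of 7 members were higher in pDC (all but Irgm2) against 5.65% of all genes, and 6 of 7 in cDC (all but Irgm1) against 0.78%. These counts depended on single libraries. The pDC count was 1 without the first vehicle pDC library, and 3 without the second vehicle or without the second panobinostat pDC library. The cDC count was 0 without the first vehicle cDC library and 0 without the second panobinostat cDC library. Libraries did not overlap, with panobinostat higher, for 7 of 7 members in pDC against 15.7% of genes, for 7 of 7 in cDC against 22.2%, and for 7 of 7 in both cell types together against 4.84% (689 genes). The median log2 fold change of the members was 1.24 in pDC and 1.05 in cDC, and that of all genes tested was -0.14 in pDC and 0.00 in cDC. The members were chosen with earlier results of these libraries known and share regulators and neighbouring positions, so the counts describe the list and are no test of it.

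The pDC count depended on 1 library and on the tool. Without the first panobinostat pDC library, which leaves the library that stood apart as the lone panobinostat pDC sample, 5 of the 7 were called (Igtp, Irgm1, Tgtp1, Tgtp2 and Ifi47), in a fit that called 2690 genes higher and 5537 lower and that assumes the lone sample to vary like the other groups. Without the second panobinostat pDC library, 0 of 7 were called and the median of the members was 0.75. The log2 fold changes in that fit were 0.71 for Igtp, 0.53 for Irgm1, 0.75 for Irgm2, 1.36 for Iigp1, 0.92 for Tgtp1, 0.90 for Tgtp2 and 0.31 for Ifi47. DESeq2 called Igtp in pDC (log2 fold change 1.18, adjusted p = 0.0214), in a fit with 331 genes called higher and 583 lower, and limma-voom called none. In cDC, 0 of 7 were called by edgeR, DESeq2 and limma-voom.

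**Figure D2:**
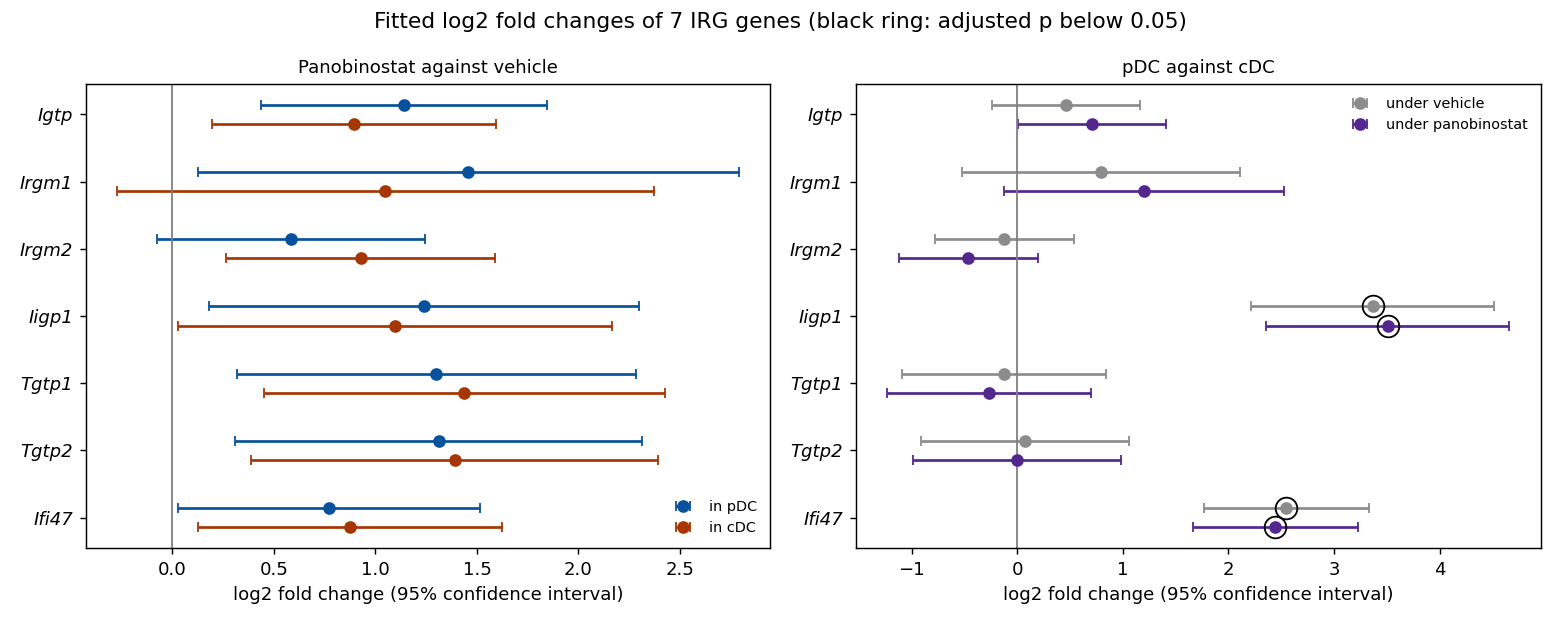
Fitted log2 fold changes (x axis) with 95% confidence intervals for the 7 IRG genes (y axis), for panobinostat against vehicle on the left and for pDC against cDC on the right; black rings mark an adjusted p below 0.05. All 14 treatment estimates are above 0 without a ring, and Iigp1 and Ifi47 alone carry rings on the right, under vehicle and under panobinostat.

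The treatment differences in pDC and cDC were compared directly in the same edgeR fit. The difference between them (pDC minus cDC, log2) ran from -0.34 ± 0.38 (SE) for Irgm2 to 0.41 ± 0.77 (SE) for Irgm1, with adjusted p from 0.890 to 0.992. None of the 7 was called, and none had an unadjusted p under 0.05, in edgeR, DESeq2 or limma-voom. Over all genes, edgeR called 0.00702% and gave 7.77% an unadjusted p under 0.05. The intervals were wide. For Igtp the interval was -0.74 to 1.23, for Tgtp1 -1.51 to 1.23 and for Irgm1 -1.44 to 2.26, so differences of 2-fold or more between the cell types in the effect on Tgtp1 or Irgm1 lie within them, in either direction.

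The cell types themselves differed for Iigp1 and Ifi47, both of the effector class, which were higher in pDC. Under vehicle, Iigp1 was 10.3-fold higher in pDC than in cDC (log2 fold change 3.37 ± 0.48 SE, edgeR adjusted p = 0.0105), and Ifi47 was 5.85-fold higher (2.55 ± 0.32 SE, adjusted p = 0.00739). Under panobinostat, Iigp1 was 11.4-fold higher (3.51 ± 0.48 SE, adjusted p = 0.00772) and Ifi47 5.44-fold higher (2.44 ± 0.32 SE, adjusted p = 0.00699). Thus 2 of 7 members were called higher in pDC under vehicle, where 5.01% of all genes were called higher, and 2 of 7 under panobinostat, where 7.76% were. In both conditions each pDC library of these 2 genes lay above each cDC library, as did 35.1% of all genes under vehicle and 24.7% under panobinostat. These 2 comparisons use different libraries, and the same 2 genes were called in both.

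Both calls rest on few libraries. Under vehicle, neither gene was called without the second vehicle pDC library (adjusted p = 0.0664 for Iigp1 and 0.0519 for Ifi47) or without the first vehicle cDC library (0.0771 and 0.0826). Iigp1 was not called without the first vehicle pDC library (0.0585), nor Ifi47 without the second vehicle cDC library (0.0613). Under panobinostat, neither was called without the first panobinostat cDC library (0.0588 and 0.0751) or in a fit of the 4 panobinostat libraries alone (0.0696 and 0.0764), and Ifi47 was not called without the second panobinostat cDC library (0.0569). In these edgeR fits, and in the others run, the log2 fold change stayed between 2.97 and 4.08 for Iigp1 and between 1.98 and 2.76 for Ifi47. Without the pDC library that stood apart, the panobinostat values were 3.63 for Iigp1 and 1.98 for Ifi47, and both were called.

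The other 5 members were not called between the cell types in the fit of all 8 libraries by group. Igtp and Irgm1 had positive estimates, 0.46 and 0.79 under vehicle and 0.71 and 1.20 under panobinostat (log2, pDC minus cDC), with adjusted p from 0.140 to 0.472. Irgm2 had negative ones, -0.13 under vehicle and -0.47 under panobinostat (adjusted p = 0.276), and its pDC libraries lay below its cDC libraries in both conditions, as 35.5% of all genes did under vehicle and 38% under panobinostat. Tgtp1 was at -0.13 and -0.27 and Tgtp2 at 0.07 and -0.01, with libraries that overlapped. The intervals for Tgtp2, -0.91 to 1.06 and -0.99 to 0.98, leave room for differences of nearly 2-fold, and the sign of its estimate changed under several settings. Without the first panobinostat pDC library, Igtp and Irgm1 were called higher and Irgm2 lower as well under panobinostat, in a fit that called 3416 genes higher and 6380 lower of 14868, with the library that stood apart as the lone panobinostat pDC sample. Without the second panobinostat pDC library, the estimates under panobinostat were 0.27 for Igtp, 0.27 for Irgm1 and -0.30 for Irgm2, and none of these was called.

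Levels of different genes were compared as CPM per kilobase of the longest protein-coding GENCODE M21 transcript (1773 bases for Ifi47 to 3528 bases for Irgm2). How multiply aligned reads were treated is not given. If they were left out of the counts, the levels of Tgtp1 and Tgtp2 are understated, and the ranks below would change with them. In vehicle pDC, Ifi47 had the highest level, 107 ± 22.7 CPM per kb (SD, n = 2), followed by Tgtp2 at 62.9 ± 30.5 and Tgtp1 at 50.9 ± 24.1. Irgm1 (40.6 ± 14.7), Igtp (34.1 ± 4.03) and Iigp1 (32.2 ± 4.04) came next and did not differ beyond the spread of their libraries. Irgm2 was the lowest at 9.44 ± 0.13 CPM per kb. Ifi47 ranked first and Irgm2 last in each of the 4 pDC libraries, except that with the joined length of all exons Tgtp2 ranked first in the 2 panobinostat pDC libraries.

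The order was another one in cDC. In vehicle cDC, Tgtp2 (59.8 ± 7.19 CPM per kb, SD, n = 2) and Tgtp1 (55.7 ± 8.01) were the highest and overlapped, Igtp (24.8 ± 3.70), Irgm1 (23.5 ± 4.78) and Ifi47 (18.3 ± 2.88) followed, and Irgm2 (10.3 ± 0.74) and Iigp1 (3.12 ± 1.43) were the lowest. In each of the 4 cDC libraries Tgtp2 ranked first and Tgtp1 came next, with Ifi47, Irgm2 and Iigp1 as the last 3 in that order. With the joined exon length, Tgtp2, Tgtp1 and Iigp1 kept these ranks in the 4 cDC libraries and the ranks of the others between them changed.

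After panobinostat the pDC means were 183 ± 63.3 CPM per kb for Ifi47, 156 ± 48.1 for Tgtp2, 125 ± 35.5 for Tgtp1, 112 ± 71.7 for Irgm1, 75.8 ± 14.2 for Iigp1, 75.2 ± 24.5 for Igtp and 14.2 ± 3.34 for Irgm2 (SD, n = 2). The cDC means were 157 ± 44.7 for Tgtp2, 151 ± 44.1 for Tgtp1, 48.5 ± 20.3 for Irgm1, 46.0 ± 7.88 for Igtp, 33.5 ± 5.60 for Ifi47, 19.6 ± 2.66 for Irgm2 and 6.66 ± 3.11 for Iigp1.

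The members did not vary in step across all libraries. Over the 8 libraries, which share the contrast of cell type and treatment, Pearson's r of log2 CPM was 0.989 for Tgtp1 with Tgtp2, 0.976 for Iigp1 with Ifi47 and 0.967 for Igtp with Irgm1. It was 0.171 for Iigp1 with Tgtp1, -0.04 for Irgm2 with Iigp1 and -0.09 for Irgm2 with Ifi47. The 2 genes with high pDC levels thus formed a pair, the near-identical Tgtp genes another, and Igtp and Irgm1 a further one, although Irgm2 and not Irgm1 is the neighbour of Igtp on the chromosome. Within groups, replicate 2 was above replicate 1 for all 7 members in panobinostat cDC and in vehicle pDC, for all but Irgm2 in vehicle cDC, and for all but Irgm2 and Iigp1 in panobinostat pDC.

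**Figure D3:**
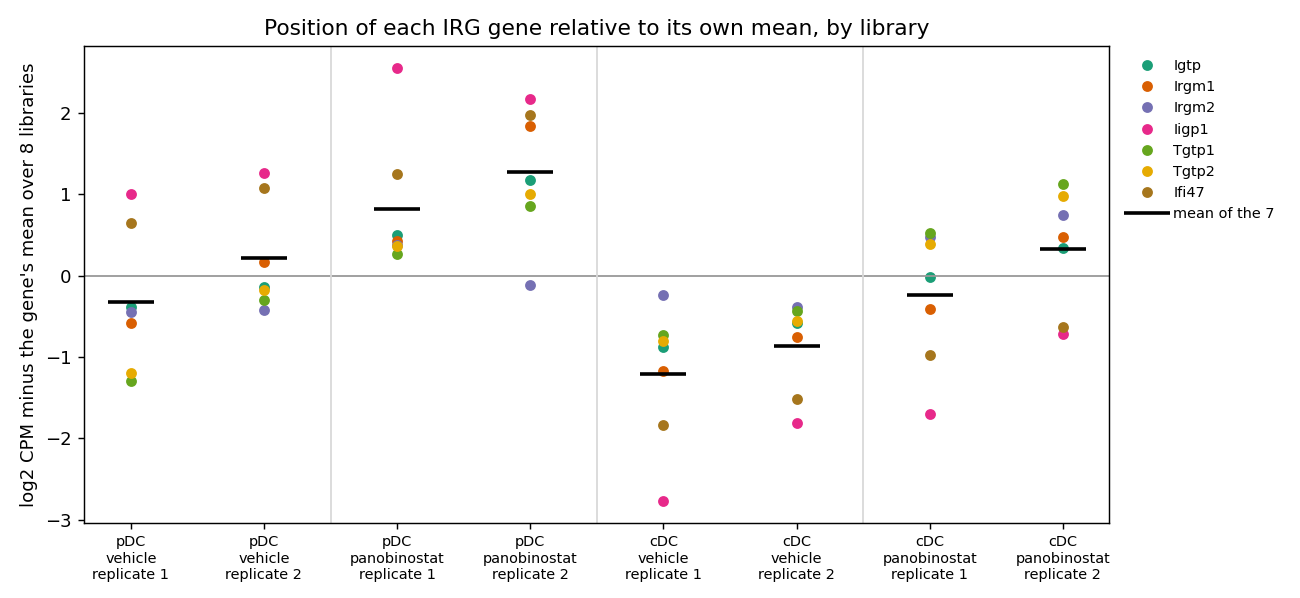
Log2 CPM of each IRG gene minus its own mean over the 8 libraries (y axis) for each library (x axis); coloured points are the 7 genes and black bars their mean. The mean runs from -1.20 in the first vehicle cDC library to 1.27 in the second panobinostat pDC library, and Iigp1 and Ifi47 lie above it in all pDC libraries and below it in all cDC libraries.

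Among 8279 other genes whose mean log2 CPM reached 3, those whose levels over the 8 libraries were most like the mean profile of the family included Oasl2 (r = 0.987), Nabp2 (0.980), the pseudogene Gm18853 (0.978) and Pdia6 (0.972). Oasl2 is an interferon-induced relative of the oligoadenylate synthetases, Nabp2 binds single-stranded DNA and Pdia6 is a disulfide isomerase of the endoplasmic reticulum. Oasl2 had 71.0 and 94.0 CPM in vehicle pDC, 141 and 258 CPM in panobinostat pDC, 25.0 and 30.2 CPM in vehicle cDC and 55.9 and 91.9 CPM in panobinostat cDC, so within each cell type its treated and control libraries did not overlap. These correlations were picked as the highest of many over 8 libraries and are given as a description.

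The ligands known to induce the family were scarce. Ifng, which encodes interferon gamma, had 1 and 2 counts in the vehicle pDC libraries and 0 in both panobinostat pDC libraries, where 3 counts, the limit that a count of 0 allows, correspond to 0.149 and 0.279 CPM. In cDC it had 2 and 24 counts with vehicle and 14 and 171 counts with panobinostat, libraries that overlapped (edgeR adjusted p = 1). For Ifnb1, which encodes interferon beta, the vehicle pDC libraries held 2 counts each, the first panobinostat pDC library 20, the second 0, and the 4 cDC libraries 0. The sorted cells need not be the source of a ligand, which was not measured elsewhere here.

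On the receptor side, both chains of the interferon gamma receptor were lower in pDC than in cDC. Ifngr1, the ligand-binding chain, had 77.4 and 87.9 CPM in vehicle pDC and 753 and 1057 CPM in vehicle cDC, a log2 fold change of -3.45 ± 0.25 (SE, edgeR adjusted p = 0.00147). Under panobinostat the difference was -4.25 ± 0.26 (SE, adjusted p = 0.00104). Ifngr2, the signalling chain, differed by -0.97 ± 0.20 (adjusted p = 0.0329) under vehicle and by -1.10 ± 0.20 (adjusted p = 0.0175) under panobinostat.

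The receptor of type I interferon had the opposite distribution. Ifnar1 was higher in pDC by 2.09 ± 0.18 (SE, edgeR adjusted p = 0.00224) under vehicle and by 1.33 ± 0.17 (adjusted p = 0.00676) under panobinostat on the log2 scale. Ifnar2 was higher by 2.39 ± 0.27 (adjusted p = 0.00452) and by 2.33 ± 0.27 (adjusted p = 0.00434). Irf7, a factor of the type I interferon response with high levels in pDC, was higher by 2.74 ± 0.35 (adjusted p = 0.00744) and by 1.45 ± 0.33 (adjusted p = 0.0338). Iigp1 and Ifi47 thus had higher levels in the cell type with more Ifnar1, Ifnar2 and Irf7 RNA and less Ifngr1 and Ifngr2 RNA, and whether these are linked was not tested.

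Of 12 genes of interferon gamma signalling, all tested, 0 were called with panobinostat in pDC or cDC, and their median log2 fold change was -0.06 in pDC and 0.20 in cDC. At an unadjusted p of 0.05 the list had 0 genes in pDC and 1 in cDC, and DESeq2 and limma-voom called 0 in either. Jak1 was at -0.07 in pDC and -0.03 in cDC, Irf1, a factor that itself binds interferon-stimulated response elements, at -0.31 and 0.48, and Irf8 at -0.39 and 0.38, none of them called. Jak2 had 67.5 and 16.2 CPM in the 2 panobinostat pDC libraries, around the 42.9 and 44.6 CPM of vehicle pDC, the lower value being from the library that stood apart. Between the cell types, Ptpn6, a phosphatase that dampens cytokine signalling, was the other called gene of this list, higher in pDC by 1.14 under vehicle (adjusted p = 0.0213) and by 1.12 under panobinostat (adjusted p = 0.0169).

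Of 7 genes of type I interferon signalling, 0 were called with panobinostat, with medians of -0.39 in pDC and 0.47 in cDC. At an unadjusted p of 0.05 there were 1 higher and 2 lower in pDC and 2 higher in cDC, and DESeq2 called 1 lower in pDC, Tyk2. Irf9, a DNA-binding factor of the type I interferon response, was at 0.39 in pDC and 0.56 in cDC (edgeR adjusted p = 0.432 and 1). Usp18, an interferon-induced brake on the type I receptor, was at 1.09 in pDC (adjusted p = 0.239), and Tyk2, a receptor kinase, at -1.64 (adjusted p = 0.148). Under panobinostat Usp18 was higher in pDC than in cDC by 1.49 (adjusted p = 0.0316) and Tyk2 lower by -1.88 (adjusted p = 0.0165).

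The relatives of the family had smaller medians than the 7 members, which were chosen with earlier results known. Of 8 other IRG family genes tested (10 listed), 6 had estimates above 0 in pDC and 8 in cDC, with medians of 0.76 and 0.54. Their estimates ran from -0.53 to 3.53 in pDC and from 0.02 to 1.43 in cDC. Gm12185 had 17.4 and 15.4 CPM in vehicle pDC and 22.5 and 57.0 CPM in panobinostat pDC. Its cDC levels were 14.6 and 18.8 CPM with vehicle and 29.5 and 45.9 CPM with panobinostat. By edgeR 0 were called, with 1 higher at an unadjusted p of 0.05 in pDC and 2 in cDC, whereas DESeq2 called 1, Gm12250, higher in both cell types. Gm12250 (Irgb10), an effector that acts on bacterial membranes, had 10.2 and 13.8 CPM in vehicle pDC and 22.0 and 22.1 CPM in panobinostat pDC. In cDC its levels were 11.4 and 11.9 CPM with vehicle and 27.0 and 35.7 CPM with panobinostat. Its panobinostat libraries lay above its vehicle libraries in both cell types, with a log2 fold change of 0.88 (edgeR adjusted p = 0.360) in pDC and 1.43 (adjusted p = 1) in cDC, and unlike Iigp1 and Ifi47 it was not called between pDC and cDC (0.05 under vehicle and -0.51 under panobinostat).

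Guanylate-binding proteins are larger interferon-induced GTPases that act on the same vacuoles. Of 11 tested, 7 had estimates above 0 in pDC and 11 in cDC, with medians of 0.62 and 0.43. By edgeR 0 were called, with 3 higher at an unadjusted p of 0.05 in pDC and 2 in cDC, and DESeq2 called Gbp2 and Gbp7 higher in pDC and Gbp2b higher in cDC. Gbp2 had the lowest p of them in pDC, at 2.02 ± 0.31 (SE, edgeR adjusted p = 0.119). Between the cell types under vehicle, Gbp6 (2.85) and Gbp10 (2.85) were called higher and Gbp2 (-3.81) lower in pDC.

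Loading of IRG proteins onto vacuoles also depends on the ATG8 conjugation machinery of autophagy and on ubiquitin factors. Of 14 such genes, 0 were called with panobinostat, with medians of 0.16 in pDC and 0.00 in cDC. At an unadjusted p of 0.05 there were 2 higher and 1 lower in pDC and 0 in cDC, and DESeq2 called 1 higher and 1 lower in pDC, Gabarapl1 and Trim21. Gabarapl1, an ATG8 protein, was at 1.50 in pDC (edgeR adjusted p = 0.188), and Trim21, a ubiquitin ligase, at -2.72 (adjusted p = 0.189). Map1lc3b, which encodes an ATG8 protein (LC3B), was higher in pDC than in cDC by 1.02 under vehicle (adjusted p = 0.0180) and by 1.52 under panobinostat (adjusted p = 0.00424).

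Other targets of interferon gamma did not all move as the IRG genes did. Of 15 tested (16 listed), 9 had estimates above 0 in pDC and 12 in cDC, with medians of 0.12 and 0.39. By edgeR 0 were called, with 1 higher and 2 lower at an unadjusted p of 0.05 in pDC and 0 in cDC, and DESeq2 called 2 lower in pDC, Ciita and Nlrc5. Ciita, the master factor of MHC class II genes, was at -1.75 in pDC (edgeR adjusted p = 0.167), with 261 and 268 CPM with vehicle and 111 and 45.4 CPM with panobinostat. Nlrc5, the corresponding factor for MHC class I, was at -1.14 in pDC (adjusted p = 0.169), and Psmb8, an immunoproteasome subunit, at 0.88 (adjusted p = 0.302). Cxcl9, a chemokine gene induced by interferon gamma, was lower in pDC than in cDC by -6.59 under vehicle (adjusted p = 0.0273) and by -9.13 under panobinostat (adjusted p = 0.0117).

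**Figure D4:**
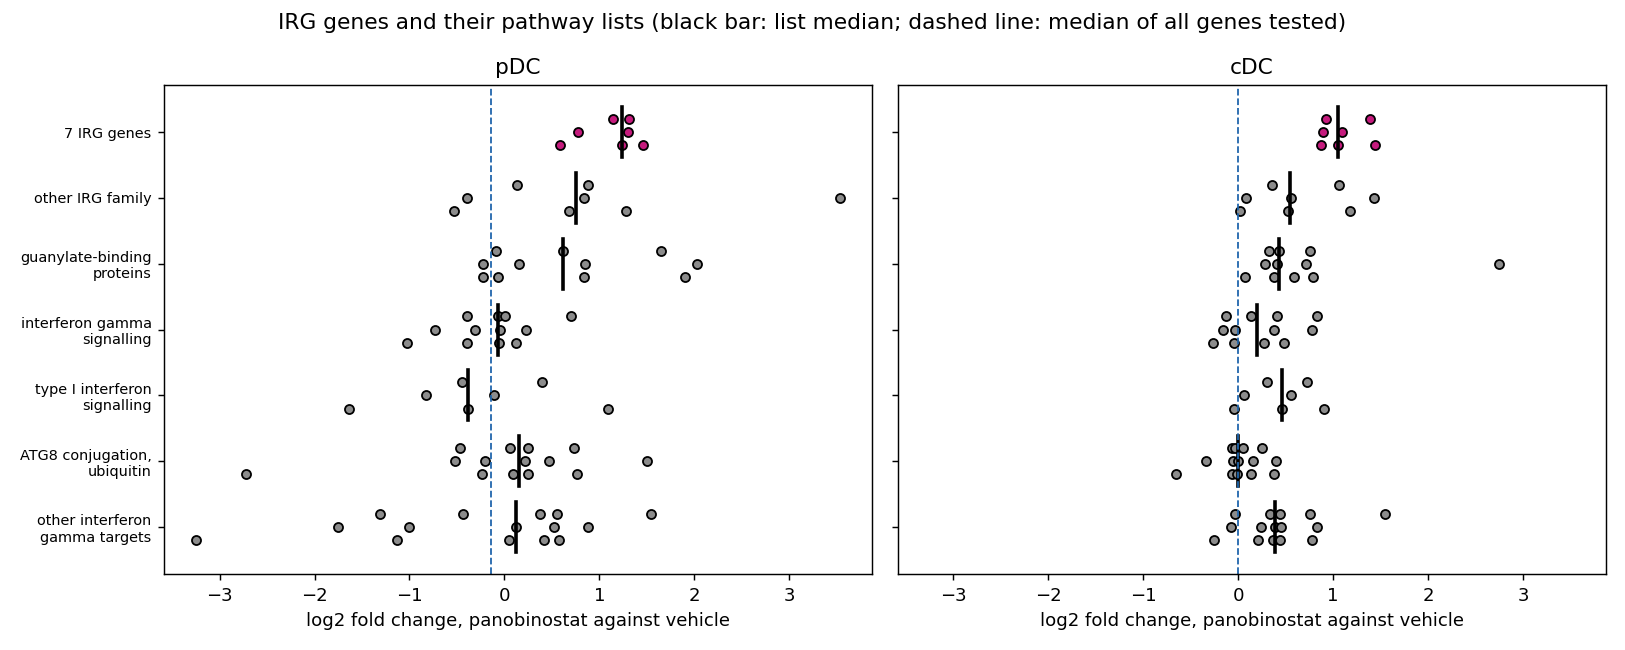
Log2 fold change of panobinostat against vehicle (x axis) for each tested gene of the 7 IRG genes and of 6 related lists (rows), in pDC on the left and cDC on the right; points are genes, black bars list medians and the dashed line the median of all genes tested. The IRG medians, 1.24 in pDC and 1.05 in cDC, are the rightmost of the 7 rows in both panels, and the list of type I interferon signalling has its median at -0.39 in pDC and 0.47 in cDC.

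Summed markers listed for other cells differed with treatment in part. A few genes made up most of several of the sums, and whether their RNA came from other cells or from the sorted cells was not tested. In pDC, 12 NK cell markers summed to 181 to 279 CPM with vehicle and 597 to 1338 CPM with panobinostat, where Gzmb and Eomes were at 0. Most of that sum was Klrd1 (156 and 230 CPM with vehicle, 407 and 832 CPM with panobinostat) and Klrk1 (23.0 and 42.8 CPM, 178 and 487 CPM). Ncr1, Nkg7, Prf1 and Gzma were at 0 in the second panobinostat pDC library, the one that stood apart. In the first they had 28, 43, 6 and 42 counts. With vehicle the 2 libraries had 0 and 2, 7 and 13, 10 and 13, and 0 and 2 counts, in the same order. Panobinostat estimates of this list were above 0 for 8 of 12 genes in pDC (median log2 1.39). By edgeR 0 were called, with 2 higher at an unadjusted p of 0.05, and DESeq2 called Klrd1 and Klrk1 higher. In cDC the NK sum was 152 to 225 CPM with vehicle and 222 to 574 CPM with panobinostat. Estimates there were above 0 for 12 of 12. The second panobinostat cDC library held 930 counts of Gzma, 794 of Ncr1, 1078 of Nkg7 and 1388 of Il2rb. The first held 32, 30, 54 and 95. The second also had 171 counts of Ifng and an IRG sum of 1459 CPM. With vehicle the second library was the higher too, with 140, 139, 206 and 550 counts against 2, 6, 13 and 67. Klrk1 differed less between the panobinostat cDC libraries (138 and 173 CPM), as did Klrd1 (65.9 and 78.2 CPM).

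Macrophage and monocyte markers (12) summed to 2598 to 4364 CPM in vehicle pDC and 4136 to 7610 CPM in panobinostat pDC. Ly6c2 alone had 1674 and 3445 CPM with vehicle and 2708 and 5958 CPM with panobinostat, whereas the list median was -0.11 with 5 of 12 above 0. In vehicle cDC Ly6c2 had 3.40 and 7.71 CPM. Adgre1, Csf1r and C1qa were at 0 in the second panobinostat pDC library and had 100, 152 and 121 counts in the first. The vehicle pDC libraries held 83 and 30, 214 and 161, and 81 and 17 counts of them. In cDC the sum was 1347 to 1574 CPM with vehicle and 1175 to 1337 CPM with panobinostat, with a list median of -0.35 and 4 of 12 above 0. Ccr2 had 399 and 377 CPM in vehicle pDC and 832 and 971 CPM in panobinostat pDC. Its cDC levels were 55.0 and 46.8 CPM with vehicle and 142 and 191 CPM with panobinostat. DESeq2 called Ccr2 alone of this list, higher in both cell types, and edgeR and limma-voom called 0. T cell markers (12) summed to 1079 to 1669 CPM in vehicle pDC and 497 to 768 CPM in panobinostat pDC, where Cd3e, Cd247 and Themis were at 0. Cd4 (690.5 and 795 CPM with vehicle, 272 and 280 CPM with panobinostat) and Cd8b1 (374 and 858 CPM, 197 and 387 CPM) made up most of that sum, and the median of the 11 tested was 0.55. In vehicle pDC Cd3e had 0.151 and 1.30 CPM and Trac 0.656 and 1.84 CPM. The T cell sum in cDC was 115 to 137 CPM with vehicle and 139 to 198 CPM with panobinostat. Cd4 had 106 and 94.4 CPM and Cd8b1 2.84 and 3.05 CPM in vehicle cDC. The sums of 10 B cell markers overlapped between vehicle and panobinostat in both cell types. Their median log2 fold change was 0.93 in pDC, with 7 of 10 above 0, and -1.35 in cDC, with 2 of 10 above 0. By edgeR 0 of them were called in either cell type. Neutrophil markers (10) stayed at or below 16.4 CPM in each library. The part of these other cells in the IRG levels was not tested. Among the 12 pDC and 12 cDC markers, edgeR and limma-voom called 0 with panobinostat in either cell type. In pDC, DESeq2 called the pDC marker Spib and the cDC marker Flt3 lower. It called the cDC markers Batf3, Clec4a4 and Id2 higher in pDC, and 0 of these markers in cDC. Whether such lineage differences bear on the IRG levels was not tested either.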

How the data were processed

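Per the labels' protocols, a low-input NEBNext kit was used to prepare libraries from Trizol-extracted RNA. The deposited table holds raw read counts per Entrez gene ID for the 8 libraries. Per the submitters' processing notes, the tools were cutadapt (2.1), HISAT2 (2.1.0) and featureCounts (Subread 2.0.0), and the build was mm10. The sources used here do not give the strandedness, the annotation or how multiply aligned reads were treated. The extraction text mentions leukemia cells being sorted, whereas sample titles give pDC or cDC, and the titles were followed. Columns marked D5W were taken as vehicle and LBH as panobinostat, and 0 columns were left without a sample.

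Symbols were matched for 25275 of 27179 IDs (92.99%). Counts were scaled by TMM, filtered (filterByExpr, minimum count 10 and minimum total 15) and tested with edgeR 4.0.16 (quasi-likelihood, 1 fit of all 4 groups, 5 comparisons) in R 4.3.3, with Benjamini-Hochberg adjustment over 14238 genes and a threshold of 0.05. Log2 CPM used a prior count of 2. Alternatives were other scalings, no filter, a stricter filter (50 counts in 2 libraries), DESeq2 1.42.0, limma-voom (limma 3.58.1), the 4 libraries compared alone, a replicate block, Tgtp1 and Tgtp2 summed, and leaving out each library. All 7 members were named in each comparison, together with a fixed set of pathway genes and, from each pathway list, called genes and those with the smallest p. The members and lists were chosen with earlier results of these data known. The test was tried on simulated data, where it called few of the changes put in, so a gene not called here may still differ. Reads carry no molecular identifiers, so the limit given for a count of 0 covers counting error only. The p-values measure the spread between libraries of a group, each from a pool of mice, taken per gene over all 4 groups. Differences in library quality are part of that spread. Between the 2 panobinostat pDC libraries r of log2 CPM was 0.801, against 0.965 to 0.973 in the other groups. Some items are not reported here.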

Additional observations from a re-analysis of the deposited data

How the results depend on the processing

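Each group had 2 pools of mice, and each member had at least 141 counts in every library. The 7 panobinostat estimates kept their sign in all 18 alternatives in pDC and in cDC. The count of members called with panobinostat in pDC, 0, became 1 with DESeq2 and ranged from 0 to 5 when single libraries were left out. In cDC, and for the difference of the effects, it was 0 in each alternative. The count of 2 called between pDC and cDC ranged from 0 to 2 under vehicle and from 0 to 5 under panobinostat when single libraries were left out, and was 0 under panobinostat when the 4 panobinostat libraries were fitted alone. Scaling by library size only moved the median of all genes in pDC from -0.14 to -0.28 and that of the members from 1.24 to 1.08. RLE scaling moved the median of all genes between pDC and cDC under vehicle from 0.02 to -0.11. The number of genes called with panobinostat in pDC was 13 with edgeR, 914 with DESeq2 and 0 with limma-voom, and in cDC 0, 15 and 0.

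Replicate numbers are shared between groups, but nothing in the labels says that a number marks a shared litter or day. Same-numbered libraries deviated together with r from 0.146 to 0.489 over the 6 pairs of groups. With the replicate block, 0 members were called with panobinostat in either cell type, 2 between pDC and cDC under vehicle, and 3 under panobinostat, where Irgm1 was added (log2 fold change 1.13, adjusted p = 0.0467). Estimates near 0 changed sign. Tgtp2 between pDC and cDC under vehicle was -0.0664 with RLE scaling and with DESeq2, -0.0161 with limma-voom, -0.0207 with the pair summed and -0.00891 with the replicate block, and under panobinostat it was 0.0346 with upper quartile scaling. When single libraries were left out, the difference of the effects ranged from -0.17 to 0.53 for Igtp, -0.50 to 0.94 for Irgm1, -0.43 to 0.70 for Iigp1, -0.57 to 0.43 for Tgtp1, -0.52 to 0.50 for Tgtp2 and -0.55 to 0.20 for Ifi47. The pDC against cDC estimate ranged from -0.76 to 0.29 for Tgtp1 and -0.57 to 0.51 for Tgtp2 under vehicle, and from -0.65 to 0.0577 and -0.42 to 0.31 under panobinostat. The joined exon length, chosen after seeing the data, moved 10 of 28 levels per kilobase by more than the SD.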
